A study of Danio rerio with 9 samples.

Results

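Regenerating zebrafish caudal fins at 7 days after amputation (7 dpa) were compared with regenerates at 3 days (3 dpa), to describe what moves between early and later regrowth among messenger RNA (mRNA) transcripts, circular RNAs (circRNAs) and lncRNAs, the long RNAs that do not code for protein. The comparison took its libraries by their labels, T3dpa and T7dpa, 3 at each time and so 6 of the 9 libraries of the series. The other 3 came from intact caudal fins of control fish (CK0dpa) and are given for reference. All fish were wild-type, the regenerates grew after removal of the fin, and the labels name no drug or genetic change in any group. The labels do not say how old the fish were or whether a library came from 1 fish or a pool. The p-values therefore measure the spread between these libraries and no more, and that spread may be technical.

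A zebrafish fin regrows after amputation in overlapping stages. The stump is covered by a wound epidermis, a blastema of proliferating cells forms beneath it, and the new tissue then grows out while bone rays, vessels, nerves and pigment are rebuilt. mRNAs carry protein-coding information. Among lncRNAs are regulators of transcription and chromatin, and many have no known role. circRNAs are closed loops made when a downstream splice site is joined back to an upstream one, which makes them resistant to enzymes that degrade RNA from its ends.

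The deposited tables give transcript or circRNA IDs without gene names. A search of the available name tables for the 55393 mRNA, 4494 lncRNA and 5578 circRNA IDs matched 0 of them. The RNAs are therefore described by ID, by rank of abundance and by class, no marker genes of fin tissue could be checked, and no sequence could be shown. In the mRNA and lncRNA tables, IDs beginning with ENSDART are called annotated and those beginning with TCONS assembled. Expression is given there as a signal per transcript whose unit is not named, and its sequencing depth is unknown. circRNA values could be turned back into reads, of which there were 12070 to 13443 per library at 3 dpa and 12427 to 13507 at 7 dpa. In such bulk tissue, fewer cells of a type and less RNA per cell cannot be told apart.

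The 3 RNA classes differed in how far the times stood apart relative to replicates. For mRNAs, 2 libraries of the same time differed by a median of 0.158 to 0.181 at 3 dpa and 0.196 to 0.204 at 7 dpa on the log2(signal + 1) scale. Libraries of different times differed by 0.301 to 0.351, above every same-time pair. For lncRNAs the ranges were 0.463 to 0.503 and 0.503 to 0.521 within times and 0.608 to 0.667 between times, on the log2(signal + 0.1) scale. For circRNAs they were 1.03 to 1.196 within 3 dpa, 1.29 to 1.54 within 7 dpa and 1.25 to 1.57 between times, on the log2(RPM + 1) scale, where RPM is a circRNA's reads scaled to the same total in every library. Pairs of 7 dpa libraries thus differed about as much from each other in circRNAs as from 3 dpa libraries. Of the 3213 circRNAs behind these medians, 2547 averaged under 3 reads per library. A read is worth 74.0 to 82.9 RPM in the regenerate libraries, so 0 and 1 read lie far apart on this scale. The part of low counts in the circRNA distances was not tested. The distances of all 3 classes share libraries and were not tested.

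**Figure D1:**
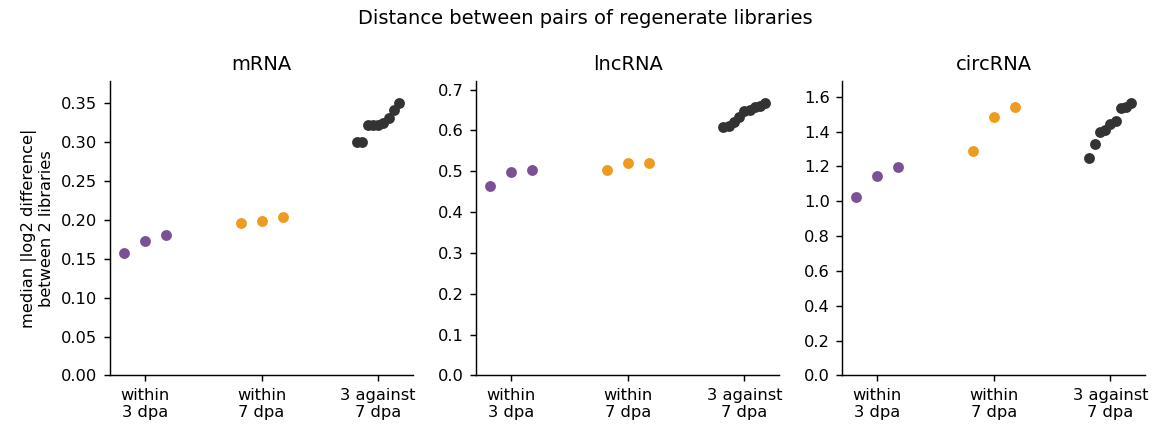
Median absolute log2 difference between 2 libraries over all tested RNAs, for the 3 pairs within 3 dpa, the 3 pairs within 7 dpa and the 9 pairs between the times, in each RNA class. The between-time pairs lie above all same-time pairs for mRNA (0.301 to 0.351) and lncRNA (0.608 to 0.667), and overlap the 7 dpa pairs for circRNA.

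Among mRNAs, 2812 transcripts were higher and 2611 lower at 7 dpa than at 3 dpa, out of 25001 tested (limma, Benjamini-Hochberg adjusted p under 0.05). This is 21.7% of those tested, 11.2% higher and 10.4% lower. Most changes were small. The median log2 change was 0.63 among the higher and -0.64 among the lower transcripts, and over all tested transcripts it was 0.04. A change of at least 2-fold was reached by 383 higher and 454 lower transcripts, and one of at least 4-fold by 14 and 21. The 3 libraries of one time all lay above the 3 of the other for 41.0% of tested transcripts, where a share of 0.1 would do so with no difference between the times. Without replicate 3 of 3 dpa 1636 transcripts were higher and 1626 lower, and the balance of directions also moved with scaling, since TMM factors, which rescale each library, gave 2573 and 2911.

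The transcripts called higher and lower carried a sizeable part of the mRNA signal. The 2812 higher transcripts held 14.2%, 14.8% and 13.6% of the mRNA total in the 3 libraries at 3 dpa and 22.5%, 22.9% and 23.7% at 7 dpa. The same transcripts held 27.0%, 27.1% and 27.9% in intact fins. The 2611 lower transcripts held 23.8%, 22.5% and 24.5% at 3 dpa, 14.4%, 14.7% and 13.8% at 7 dpa, and 9.40%, 9.28% and 9.09% in intact fins. These transcripts were chosen by the contrast between the times, so their shares at 3 and 7 dpa are a description. Setting either time against intact fin reuses the libraries that chose the transcripts, so that is a description too. The comparisons of each time with intact fin also share the intact libraries. The same limits hold for the medians that follow. Among the higher transcripts the median signal was 4.57 at 3 dpa, 7.69 at 7 dpa and 10.3 in intact fin. Among the lower ones it was 14.5, 8.99 and 6.50. The median of the lower transcripts at 3 dpa was the highest of these 6 values, in a set chosen for being higher at that time.

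Calls were more frequent among abundant transcripts. With the tested transcripts split into 10 groups of equal size by mean signal, in group 1, the lowest, 2.08% of transcripts were called higher and 3.32% lower, with a median standard error of the log2 change of 0.26. The shares grew to 11.2% and 7.40% in group 5 and to 19.6% and 28.0% in group 10, the highest, where the median standard error was 0.10. Calls higher at 7 dpa outnumbered calls lower in groups 2 to 8, and calls lower outnumbered calls higher in groups 1, 9 and 10. The standard error falls over the same groups, and its part in the shares was not tested.

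**Figure D2:**
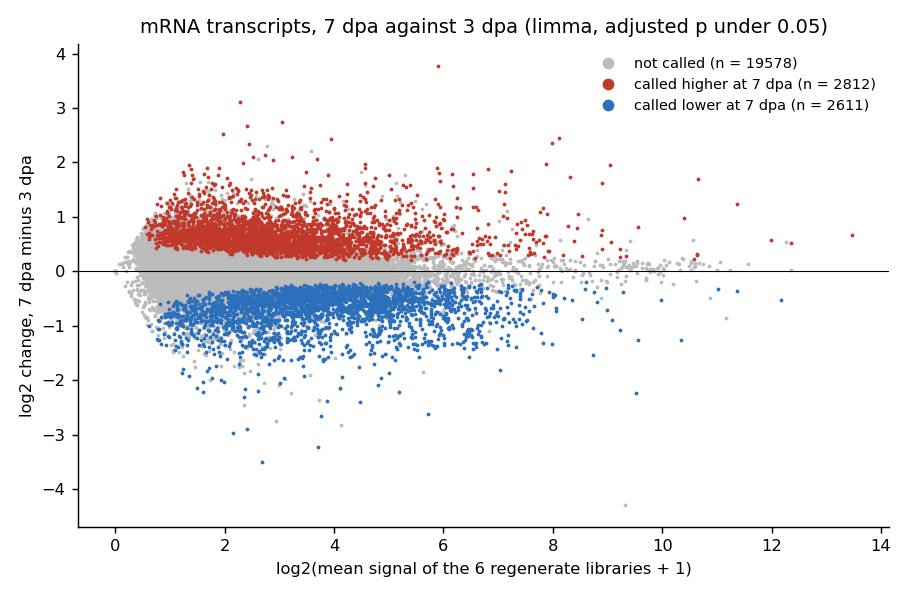
Fitted log2 change from 3 to 7 dpa of each of the 25001 tested mRNA transcripts (y axis) against the log2 of its mean signal plus 1 over the 6 regenerate libraries (x axis). Red points are the 2812 transcripts called higher at 7 dpa, blue points the 2611 called lower and grey points those not called.

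**Figure D3:**
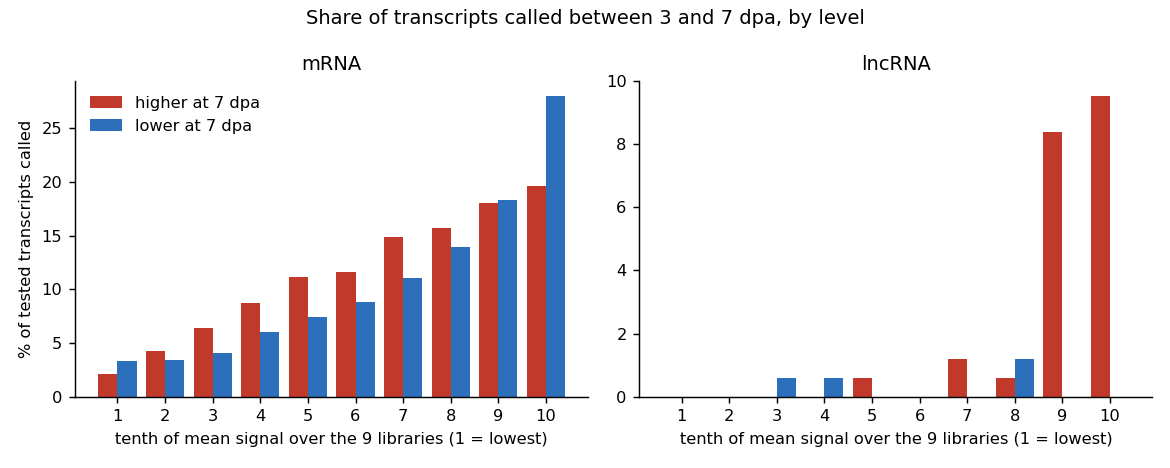
Percentage of tested transcripts called higher (red) or lower (blue) at 7 dpa, for 10 groups of equal size by mean signal over the 9 libraries (1 is the lowest), in the mRNA and lncRNA tables. In group 10 of the mRNAs 19.6% were called higher and 28.0% lower, and of lncRNAs 9.52% and 0%.

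Assembled mRNA transcripts were called higher more often than lower at 7 dpa. Of 5145 assembled transcripts tested, 665 (12.9%) were higher and 250 (4.86%) lower, and their median log2 change was 0.14. Of 19856 annotated transcripts 2147 (10.8%) were higher and 2361 (11.9%) lower, with a median of 0.02. With TMM factors the shares were 12.1% and 5.40% of assembled and 9.83% and 13.3% of annotated transcripts, and with quantile normalization the calls were 566 and 263 assembled and 2010 and 2264 annotated transcripts. Changes of at least 2-fold numbered 96 higher and 48 lower among assembled and 287 and 406 among annotated transcripts. The difference between the classes was not tested. The share of the mRNA total in assembled transcripts was 8.61%, 8.79% and 8.88% at 3 dpa and 8.91%, 9.59% and 9.32% at 7 dpa. The ranges did not overlap, and the two-sided exact permutation p was 0.1, the smallest that 2 groups of 3 can reach. Among the 50 most abundant mRNA transcripts of the regenerates 2 were assembled, and both enter this share. The one ranked 32 had a mean signal of 907 at 3 dpa and 1799 at 7 dpa. The one ranked 27 had 1209 and 1814 and was not called (limma adjusted p = 0.157). Their part in the share was not tested, so it need not describe the class as a whole.

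The mRNA signal was more concentrated in a few transcripts at 7 dpa. The 10 most abundant transcripts of each library held 10.4%, 10.2% and 10.1% of the mRNA total at 3 dpa and 11.6%, 12.7% and 12.6% at 7 dpa (two-sided exact permutation p = 0.1, the smallest possible, here and for the next measure). The 50 most abundant held 23.6%, 23.7% and 23.3% and then 25.8%, 26.2% and 27.0%. In intact fins the 10 most abundant held 13.3%, 13.4% and 14.1%, and the 50 most abundant 27.5%, 27.7% and 27.8%. The most abundant transcript of the regenerates, described below, was itself higher at 7 dpa (log2 change 0.67). Its part in both shares was not tested. At the same time more transcripts reached a signal of at least 1, with 22312, 22159 and 22003 at 3 dpa and 22867, 22563 and 22776 at 7 dpa. Fewer were above 0, with 36803, 36704 and 36676 at 3 dpa and 36381, 36337 and 36290 at 7 dpa, so the direction depended on the cut-off. The mRNA total itself overlapped between the times, at 408532 to 417436 and 406536 to 428538 (exact permutation p = 0.4).

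Of the 50 transcripts with the highest mean over the 6 regenerate libraries, 9 were called higher and 5 lower, and their median log2 change was 0.12, against 0.04 over all tested. Under TMM factors 7 were higher and 6 lower, and under quantile normalization 5 and 7, so no majority direction is given. The most abundant transcript had signals of 8611, 9442 and 8290 at 3 dpa and 13947, 14294 and 13587 at 7 dpa (log2 change 0.67, SE 0.06, limma adjusted p = 0.000263). Its libraries did not overlap between the times, as in 2799 of the 2812 transcripts called higher and 41.0% of all tested. Quantile normalization cannot test it, since it ranks first in every library and is then given the same value in all.

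Other abundant transcripts moved further. The transcript ranked 19 had signals of 763, 884 and 631 at 3 dpa and 2439, 2262 and 2630 at 7 dpa (log2 change 1.70, limma adjusted p = 0.000157). Its intact fin values, 5740, 4950 and 5300, were higher than either time. The one ranked 8 had 1679, 1550 and 1461 at 3 dpa and 3653, 2943 and 4575 at 7 dpa, against 4968, 4590 and 6075 in intact fin (log2 change 1.23, limma adjusted p = 0.00106). The one ranked 32 had 847, 939 and 934 and then 1583, 1772 and 2042 (log2 change 0.98, limma adjusted p = 0.000563). In each of these the 7 dpa libraries all lay above the 3 dpa libraries, as in nearly all transcripts called higher.

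The falls among the abundant transcripts were led by the one ranked 35, with 1901, 1622 and 1983 at 3 dpa and 687, 934 and 686 at 7 dpa (log2 change -1.26, limma adjusted p = 0.00208). It stood at 63.4, 69.0 and 42.9 in intact fins, far below both times. The transcript ranked 5 had 5408, 5139 and 5859 at 3 dpa and 3747, 3891 and 3710 at 7 dpa, against 1460, 1589 and 1097 in intact fin (log2 change -0.53, limma adjusted p = 0.0158). Its call held in 15 of 17 alternative settings, with an adjusted p of up to 0.0620 in limma. The one ranked 47 had 1176, 1186 and 1210 and then 864, 776 and 837 (log2 change -0.53, limma adjusted p = 0.0117). No library of one time overlapped the other time in these 3 transcripts. The same held for 2604 of the 2611 transcripts called lower, so it is a description. Over all tested transcripts 41.0% did not overlap in either direction. The transcripts ranked 3 and 10 were not called. The first had 5197 ± 148 (SD, n = 3) at 3 dpa and 5263 ± 269 at 7 dpa (log2 change 0.02, SE 0.06, limma adjusted p = 0.869), and the second 2409 ± 84 and 2437 ± 38 (log2 change 0.02, SE 0.05, limma adjusted p = 0.851).

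**Figure D4:**
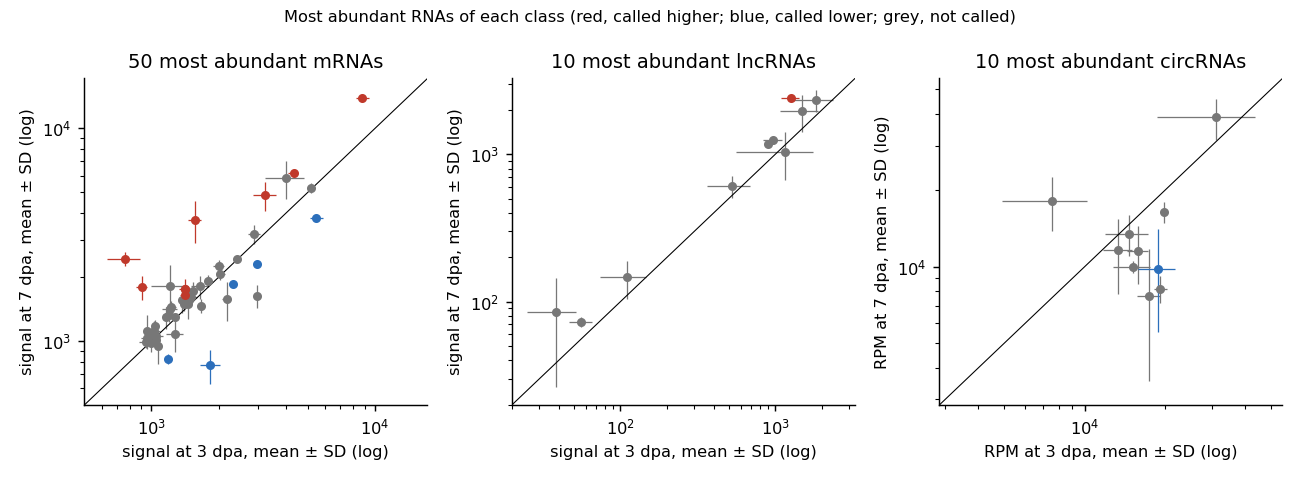
Mean level at 7 dpa against mean level at 3 dpa on log axes for the 50 most abundant mRNA transcripts (signal), the 10 most abundant lncRNAs (signal) and the 10 most abundant circRNAs (RPM), with SD over 3 libraries as error bars and the line of equal levels. Of the mRNAs 9 were called higher (red) and 5 lower (blue), of the lncRNAs 1 higher and of the circRNAs 1 lower.

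The mRNA transcripts with the largest called changes, among those with a mean of at least 10 at the higher time and no overlap between the times, were 2 assembled ones that rose and 2 annotated ones that fell. TCONS_00034811 had signals of 3.94, 7.07 and 12.2 at 3 dpa and 116, 91.9 and 123 at 7 dpa. This was a 14.3-fold difference of means (log2 change 3.77, SE 0.29, limma adjusted p = 0.000201), and the intact fins stood at 217, 234 and 235. TCONS_00030625 had 0.05, 5.67 and 0.17 at 3 dpa and 14.01, 14.09 and 9.77 at 7 dpa (log2 change 2.74, SE 0.60, limma adjusted p = 0.0127). Replicate 2 of 3 dpa stood well above the other two, and its value was still below all 7 dpa values. Without that library the log2 change was 3.602, and with a pseudocount of 0.1 it was 4.35.

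ENSDART00000141225 had signals of 9.82, 15.6 and 7.01 at 3 dpa and stood at 0 in every 7 dpa and intact fin library (limma adjusted p = 0.000141). It was thus above 0 at 3 dpa alone in these 9 libraries. It passed the filter on low values only through the 3 dpa libraries, so its p-value is a description. ENSDART00000167748 had 21.4, 21.0 and 21.7 at 3 dpa and 0.59, 0 and 7.46 at 7 dpa, and at most 0.23 in intact fins (log2 change -3.23, SE 0.64, limma adjusted p = 0.00763). Replicate 3 of 7 dpa kept a higher value than the other two. Without its 3 dpa libraries ENSDART00000167748 would not have passed the filter either, so its p-value is also a description. These 4 transcripts were called in the same direction in all 17 alternative settings. For the ones that fell this count is a description too.

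Few mRNA transcripts went from 0 in every library of one time to above 0 in every library of the other, and most of those were low. Among all transcripts 144 were at 0 in all 3 libraries at 3 dpa and above 0 in all 3 at 7 dpa, with a median signal at 7 dpa of 0.22 and a highest mean of 8.60. The reverse held for 212 transcripts, with a median at 3 dpa of 0.18 and a highest mean of 10.8. Of these, 114 of the 144 and 141 of the 212 were above 0 in at least 1 intact fin. Only 9 and 17 of them passed the filter on low values, so most were not tested.

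A large fitted change was not enough for a call where replicates disagreed. A further 12 mRNA transcripts had a fitted change of at least 4-fold without being called, 3 of them higher and 9 lower, and 10 of the 12 were listed at 0 in at least 1 of the 6 libraries. The largest of them had signals of 495, 1037 and 1039 at 3 dpa and 1182, 0 and 59.4 at 7 dpa (log2 change -4.29, SE 1.99, limma adjusted p = 0.161). Its 7 dpa libraries spanned the whole range of the 3 dpa libraries and beyond.

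Of the 1671 lncRNAs tested, 34 were called higher and 4 lower at 7 dpa (limma adjusted p under 0.05). This is 2.27% of those tested, 2.03% higher and 0.239% lower. The higher lncRNAs ranged from a log2 change of 0.83 to 4.49, and their median signals were 1.82 at 3 dpa, 4.997 at 7 dpa and 6.40 in intact fin. The change of 4.49 belonged to a lncRNA at 0 in every 3 dpa library, and with a pseudocount of 1 it was 1.68. These lncRNAs were chosen by the contrast between the times, so their medians are a description. The excess of higher over lower calls depended on scaling. The median log2 change over all tested lncRNAs was 0.20 with the values as deposited and 0.02 with TMM factors of the lncRNA table, which gave 18 higher and 10 lower. Quantile normalization gave 16 and 13, and 22 and 20 of the 38 lncRNAs were called under these scalings. With TMM factors of the mRNA data 32 were higher and 4 lower. At 3 dpa, leaving out replicate 1 gave 18 calls and leaving out replicate 3 gave 22. At 7 dpa the counts were 23 without replicate 1, 25 without replicate 2 and 19 without replicate 3.

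The called lncRNAs lay mainly in the upper levels of the table, where the standard error was smaller. Split into 10 groups by mean signal in the same way, groups 9 and 10 held 14 of 167 and 16 of 168 tested as higher calls. Groups 1 to 8 held the other 4 higher and all 4 lower calls. The median standard error of the log2 change was 0.19 in group 10 and 0.58 in group 1, and 0.52 over all tested lncRNAs, against 0.16 over mRNAs. Assembled and annotated lncRNAs each had 17 higher and 2 lower calls, out of 480 and 1191 tested.

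The lncRNA total was a larger fraction of the mRNA total at 7 dpa. Per 1000 units of mRNA total it was 23.6, 29.1 and 27.5 at 3 dpa and 29.6, 37.9 and 35.7 at 7 dpa, and 36.8, 42.9 and 46.0 in intact fins. The lowest 7 dpa library lay just above the highest 3 dpa library (exact permutation p = 0.1, the smallest possible). Without the 10 most abundant lncRNAs the values were 6.45, 6.70 and 6.51 at 3 dpa and 7.54, 8.51 and 7.92 at 7 dpa. Whether the mRNA and lncRNA tables were scaled together is not stated, so the ratio may mix separately scaled values.

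Of the 10 most abundant lncRNAs, 1 was called higher and none lower, and the median log2 change was 0.38, against 0.20 over all tested. With TMM factors this median was 0.12 and with quantile normalization 0.00, with 0 called under either. The called one ranked second, with signals of 1181, 1456 and 1155 at 3 dpa and 2354, 2460 and 2389 at 7 dpa, against 3277, 4399 and 4851 in intact fin (log2 change 0.93, limma adjusted p = 0.0233). Its call was lost with TMM factors (limma adjusted p = 0.0737) and with quantile normalization (limma adjusted p = 0.268), and it held in 9 of 18 alternative settings. The most abundant lncRNA had 1404, 2433 and 1657 at 3 dpa and 1901, 2463 and 2648 at 7 dpa, and its ranges overlapped (log2 change 0.38, SE 0.24, limma adjusted p = 0.468). Replicate 1 had the lowest value at each time in this lncRNA.

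The largest called lncRNA rises were TCONS_00064933 and ENSDART00000177369, among those with a mean of at least 1 at the higher time and no overlap. TCONS_00064933 was listed at 0 in every 3 dpa library, and its signals were 2.85, 1.13 and 3.01 at 7 dpa, and 0, 1.23 and 0 in intact fins (limma adjusted p = 0.0273). Without its 7 dpa libraries it would not have passed the filter on low values, so its p-value is a description. ENSDART00000177369 had 0.23, 0 and 0 at 3 dpa and 0.51, 2.31 and 1.26 at 7 dpa, against 1.49, 1.93 and 3.13 in intact fin (log2 change 3.08, SE 0.60, limma adjusted p = 0.0266). Its fitted change depends on how a 0 is treated, and with a pseudocount of 1 the log2 change was 1.07 (limma adjusted p = 0.0845). The 7 dpa libraries of these lncRNAs spread widely, and the calls held in 12 and 11 of 18 alternative settings. The count of 12, for TCONS_00064933, is a description too.

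All 4 lncRNAs called lower at 7 dpa were also lower in intact fins than at 3 dpa. They were chosen for being higher at 3 dpa, and both comparisons use the same 3 dpa libraries. Their place relative to intact fins is therefore a description. TCONS_00014589 had signals of 3.38, 2.27 and 4.13 at 3 dpa and 0.56, 0.82 and 0.69 at 7 dpa, against 0.01, 0.07 and 0.01 in intact fin, a 4.72-fold difference of means (log2 change -2.06, SE 0.37, limma adjusted p = 0.0172). TCONS_00039837 had 2.54, 3.54 and 4.77 at 3 dpa and 0.70, 1.11 and 1.39 at 7 dpa, against 0.55, 0.41 and 0.27 in intact fin (log2 change -1.67, SE 0.35, limma adjusted p = 0.0308). The groups did not overlap in these lncRNAs, which the rule that picked them required. The calls held in 13 and 11 of 18 alternative settings. The remaining 2, named after their values were seen because the count was small, were ENSDART00000178146 and ENSDART00000175679. The first had 1.49, 0.41 and 0.41 at 3 dpa and stood at 0 in every 7 dpa library (limma adjusted p = 0.0273), a call that held in 10 of the 17 settings that tested it. The second had 0.31, 0.45 and 0.46 and then 0.06, 0 and 0 (limma adjusted p = 0.0474), a call that held in 5 of the 17 settings that tested it. Both passed the filter on low values only through their 3 dpa libraries, so their p-values and counts of settings are a description.

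**Figure D5:**
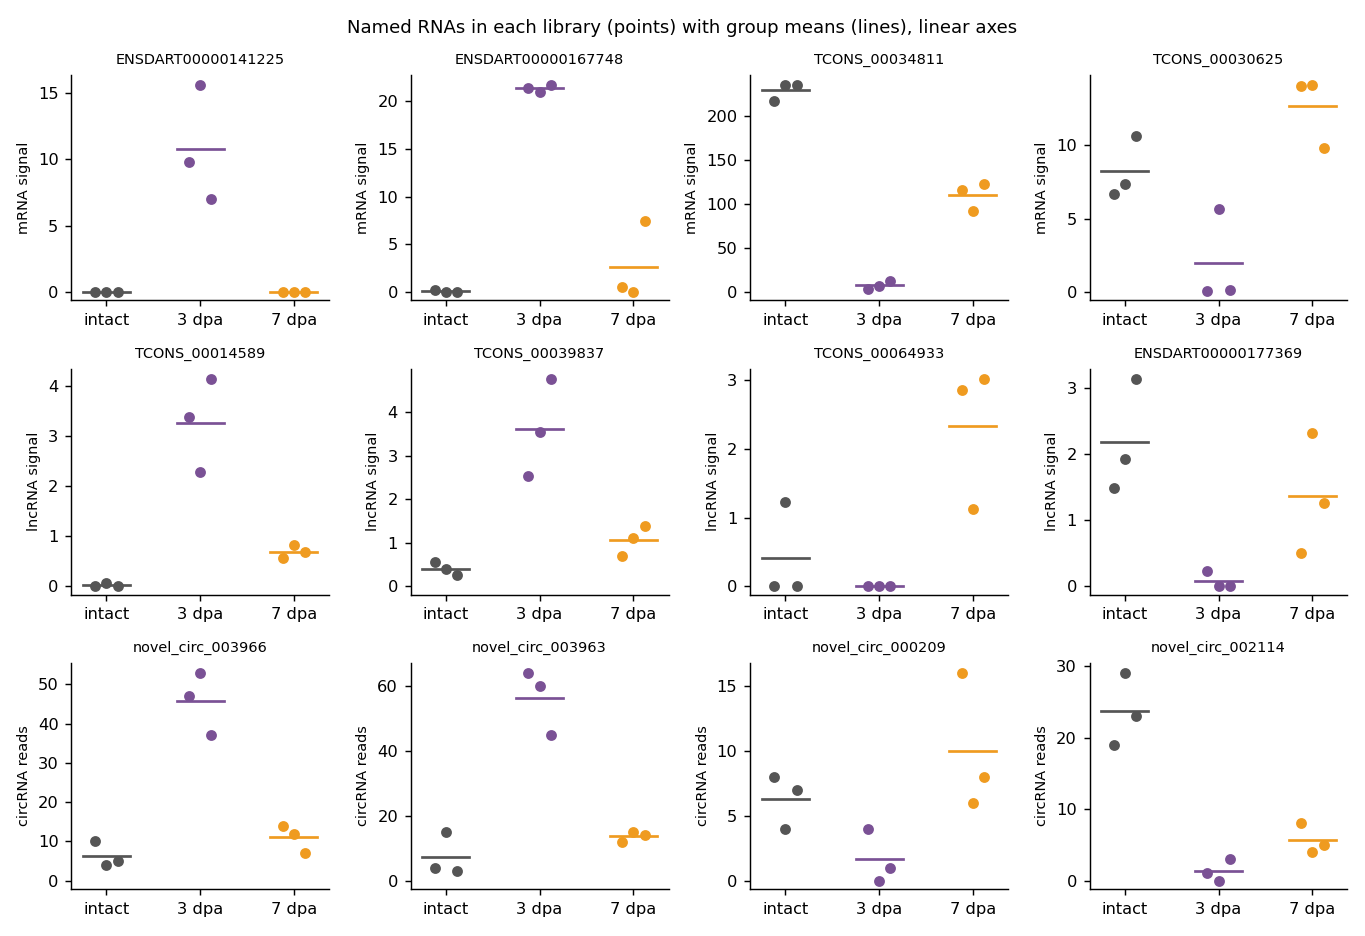
Value of each named RNA in every library (points) with the group mean (line), in intact fin, 3 dpa and 7 dpa, as signal for mRNAs (top row) and lncRNAs (middle row) and as reads for circRNAs (bottom row). In each row the 2 RNAs on the left were called lower at 7 dpa and the 2 on the right higher. No 7 dpa value overlaps the 3 dpa values, which the rule that picked these RNAs required.

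For circRNAs a change is a change in the share of a library's circRNA reads, so a change in the total amount of circRNA would not show. With limma 7 circRNAs were higher and 5 lower at 7 dpa out of 3213 tested, 0.373% of those tested (adjusted p under 0.05), with 0.218% higher and 0.156% lower. The 3 libraries of one time all lay above the 3 of the other for 9.31% of circRNAs. With no difference between the times and no ties, a share of 0.1 would be split this way. Counts of 0 tie with each other, and 2547 of the 3213 circRNAs averaged under 3 reads per library. The share of 0.1 therefore does not apply here, and 9.31% cannot be judged against it. Neither the number nor the direction of the calls was stable. Without limma's robust setting no circRNA was called. Of the 3213, 219 then had an unadjusted p under 0.05, against 243 with the robust setting. With no difference between the times a share of 0.05 would have one. Quantile normalization gave 9 higher and 2 lower, and the 6 regenerate libraries alone gave 3 and 11. The count was 23 without replicate 2 of 3 dpa, 27 without its replicate 3 and 18 without its replicate 1. At 7 dpa it was 6 without replicate 2 and 9 and 8 without the other two. On recovered reads edgeR called 16 of 3213 circRNAs (7 higher, 9 lower), 0.498%, and DESeq2 called 16 of the 161 to which it gave an adjusted p (4 higher, 12 lower), 9.94%. The 3 tools called 24 circRNAs between them and shared 6.

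Calls were found mainly among circRNAs with many reads, and the part of read depth in this was not tested. Of the 185 circRNAs that averaged at least 10 reads per library, 6 were called higher and 5 lower with limma, of the 481 with a mean of 3 to under 10 reads 1 and 0, and of the 2547 with fewer reads none. The median standard error of the log2 change was 0.44, 1.14 and 2.99 in these bands. Over all 3213 the median fitted log2 change was 0.30, and among the 185 well-covered circRNAs it was 0.00. Those 185 held 59.6% of circRNA reads at 3 dpa and 54.3% at 7 dpa.

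circRNA reads were spread over more circRNAs at 7 dpa. At an equal depth of 12070 reads, 2097, 2066 and 2083 distinct circRNAs were found at 3 dpa and 2309, 2290 and 2390 at 7 dpa, against 2528, 2433 and 2329 in intact fins. The 3 and 7 dpa libraries did not overlap (exact permutation p = 0.1, the smallest possible). The 10 most abundant circRNAs of each library held 18.5%, 18.2% and 18.5% of reads at 3 dpa and 15.7%, 16.8% and 16.7% at 7 dpa (exact permutation p = 0.1), a direction opposite to that of the mRNA table. In intact fins they held 14.3%, 16.9% and 18.2%, a range that overlapped both times. Of 4758 circRNAs found in any of the 6 libraries, 630 were found in all of them and held 74.7% of reads at 3 dpa and 69.1% at 7 dpa. Another 863 were found at 3 dpa but not at 7 dpa, with at most 10 reads each, and 1198 at 7 dpa but not at 3 dpa, with at most 19 reads each. Of these, 62 had reads in all 3 libraries at 7 dpa and none at 3 dpa, and 24 the reverse. None of either kind was called with limma.

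The circRNAs with the largest called falls were novel_circ_003966 and novel_circ_003963. novel_circ_003966 had 47, 53 and 37 reads at 3 dpa and 14, 12 and 7 at 7 dpa, and 10, 4 and 5 in intact fins. Its share of reads went from 0.362% (95% exact binomial interval 0.304 to 0.427%) to 0.0854% (0.0588 to 0.120%), a 4.25-fold difference in mean RPM (limma adjusted p = 0.00175). novel_circ_003963 had 64, 60 and 45 reads at 3 dpa and 12, 15 and 14 at 7 dpa, and 4, 15 and 3 in intact fins, a 4.18-fold difference (limma adjusted p = 0.000739). No library of one time overlapped the other in these circRNAs, which the rule that picked them required. They were called lower in 18 of 19 alternative settings each, and the call was lost without the robust setting. Intervals of read shares pool the reads of the 3 libraries of a time, so they leave out the spread between libraries. They cover counting error at most, since they treat reads as independent molecules, which reads are not.

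The other circRNAs called lower, named after their values were seen, were more abundant and changed less. novel_circ_004673 had 50, 110 and 82 reads at 3 dpa and 50, 24 and 29 at 7 dpa (log2 change -1.26, limma adjusted p = 0.00190). novel_circ_004675 had 142, 211 and 220 and then 173, 76 and 70 (log2 change -0.98, limma adjusted p = 0.000208), and novel_circ_004677 had 197, 295 and 225 and then 192, 120 and 71 (log2 change -1.03, limma adjusted p = 0.0187). In each of the 3, replicate 1 of 7 dpa had more reads than the other 7 dpa libraries, and its count lay within the 3 dpa range in novel_circ_004675 and equalled the lowest 3 dpa count in novel_circ_004673. novel_circ_004677 was the third most abundant circRNA of the regenerates. The calls of novel_circ_004673, novel_circ_004675 and novel_circ_004677 held in 15, 14 and 12 of 19 alternative settings. edgeR did not call novel_circ_004675 (adjusted p = 0.186) or novel_circ_004677 (adjusted p = 0.101). With limma both were also lost in the 6 regenerate libraries alone (adjusted p = 0.606 for each), under quantile normalization (0.191 and 0.624) and without replicate 2 of 7 dpa (0.527 and 0.542).

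The largest called rises rested on few reads. novel_circ_000209 had 4, 0 and 1 reads at 3 dpa and 16, 6 and 8 at 7 dpa, and 8, 4 and 7 in intact fins (limma adjusted p = 0.0314). novel_circ_002114 had 1, 0 and 3 reads at 3 dpa and 8, 4 and 5 at 7 dpa, and 19, 29 and 23 in intact fins (limma adjusted p = 0.0322). The groups did not overlap, which the rule that picked these circRNAs required, but a count of 0 in replicate 2 of 3 dpa enters both. The calls held in 10 and 4 of the 18 alternative settings that gave an adjusted p. Fitted log2 changes of 4.57 and 3.95 depend on how a 0 is treated and are not a size of the change. Without replicate 2 of 3 dpa they were 2.11 and 1.56, and neither was called.

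Of the 6 circRNAs called by limma, edgeR and DESeq2 alike, 3 rose, and these were named after their values were seen. novel_circ_000965 had 2, 3 and 8 reads at 3 dpa and 19, 19 and 17 at 7 dpa, a 4.08-fold difference in mean RPM, and 20, 25 and 15 in intact fins. novel_circ_001615 had 2, 7 and 4 reads and then 29, 16 and 10, a 4.15-fold difference, and 48, 43 and 34 in intact fins. novel_circ_003239 had 11, 18 and 8 reads and then 36, 31 and 39, a 2.85-fold difference, and 57, 72 and 51 in intact fins. All 7 dpa libraries lay above all 3 dpa libraries for these 3 circRNAs, as for all 7 that limma called higher. Over all tested circRNAs 9.31% were split in either direction. The split follows closely from the calls and is a description. The intact fin counts of novel_circ_001615 and novel_circ_003239 lay above those of 7 dpa. The other 3 shared calls were the falls of novel_circ_003963, novel_circ_003966 and novel_circ_004673.

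The most abundant circRNA did not pass the test. It had 552, 267 and 350 reads at 3 dpa and 465, 445 and 585 at 7 dpa (log2 change 0.38, SE 0.32, limma adjusted p = 0.802), and its replicates at 3 dpa differed by more than the means of the times. The second had 247, 267 and 236 reads and then 225, 227 and 183 (log2 change -0.27, SE 0.10, limma adjusted p = 0.325). Among the 10 most abundant circRNAs the median log2 change was -0.38, with 1 called lower, and under quantile normalization it was -0.09, with 1 called higher.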

How the data were processed

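Total RNA of caudal fins was sequenced after fragmentation, random priming and dUTP second-strand synthesis, per the labels' protocols. Per the submitters' processing notes, the tools included TopHat2 2.0.3.12, cutadapt, edgeR and RSEM, their roles unstated, and the build named is hg38, which is human. Which zebrafish build and which circRNA caller were used is not given in the sources used here. The deposited mRNA and lncRNA tables hold a signal per transcript with 2 decimals, of unstated unit. The deposited circRNA table holds RPM values that sum to the same total in each library. All of them (100%) were whole multiples of 1 read's value within 0.001 reads, so reads were recovered.

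The 3 tables were fitted separately in R 4.3.3 by limma 3.58.1 (trend and robust settings, two-sided) after taking log2(value + pseudocount). The 9 libraries entered 1 model without covariates. The pseudocount was 1 (mRNA), 0.1 (lncRNA) and 1 RPM (circRNA). A transcript had to reach 1 (mRNA), 0.1 (lncRNA) or any read (circRNA) in 3 libraries or more. The log2 scale understates changes of low transcripts, and for circRNAs zeros inflate them. Calls needed a Benjamini-Hochberg adjusted p under 0.05. Named RNAs were the 2 largest called rises and falls per table without overlap, with a mean of at least 10 (mRNA) or 1 (lncRNA) or 10 summed reads (circRNA) at the higher time. A further part of the rule, 10 named genes with symbols, could not be applied. Recovered reads were also tested with edgeR 4.0.16 and DESeq2 1.42.0. Per-library measures (7 of them, unadjusted) were compared with an exact permutation test in scipy 1.17.1. The fit was tested on simulated data. The comparison, lists and alternatives were chosen with earlier results of these data known. Transcripts of a gene can share reads and are not independent.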

Additional observations from a re-analysis of the deposited data

How the results depend on the processing

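The count of 5423 mRNA calls ranged from 3262 to 5341 when single libraries were left out, 3262 being without replicate 3 of 3 dpa, and was within 1.5 times in the other settings, with 4019 to 5384 of the same transcripts called in the settings that kept all libraries. The count of 38 lncRNA calls ranged from 18 to 39 without single libraries and was 19 with the replicate block, all higher. The count of 12 circRNA calls ranged from 6 to 27 without single libraries, with 6 without replicate 2 of 7 dpa. It was 0 without limma's robust setting, 20 with the replicate block and 21 with a pseudocount of 1 read (73.8 RPM), with causes not tested. Replicate numbers are shared by the groups, and deviations of same-numbered libraries correlated at -0.0454 to 0.0706 over the 3 tables. These correlations cover same-numbered libraries only. Replicate 1 had the lowest lncRNA total per 1000 units of mRNA total of each group (CK0dpa 36.8, T3dpa 23.6, T7dpa 29.6). It also had the highest mRNA total of each group (441930, 417436 and 428538, same order). Whether same-numbered libraries share more than a number was not tested. The block gave 4619 mRNA calls. No direction of a named RNA or per-library measure reversed in any setting run. The part of depth in the circRNA calls was not tested, and depth is unknown for mRNA and lncRNA.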

Other observations

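Several circRNAs with close numbers in the deposited list had fewer reads at 7 dpa than at 3 dpa. They were singled out after their values were seen, and what the numbering stands for is not stated in the sources used here. The 5 circRNAs numbered novel_circ_004673 to novel_circ_004677 had 242, 664, 573, 216 and 717 reads summed over the 3 dpa libraries and 103, 295, 319, 109 and 383 over the 7 dpa libraries, against 59, 189, 92, 38 and 133 in intact fins. DESeq2 called all 5 lower at 7 dpa (adjusted p = 0.0103 to 0.0306), limma 3 and edgeR 2 of them. The rates of calls in general have unlike bases. For limma and edgeR they were 0.373% and 0.498% of 3213 circRNAs. For DESeq2 the rate was 9.94%, with only 161 circRNAs left in its base, so it cannot be set beside the others. All 5 circRNAs averaged at least 10 reads per library. Among the 185 circRNAs with that many reads, limma called 6 higher and 5 lower, a closer base than all 3213. The 3 numbered novel_circ_001964 to novel_circ_001966 had 728, 486 and 483 reads at 3 dpa and 316, 215 and 217 at 7 dpa. edgeR (adjusted p = 0.00829 to 0.0174) and DESeq2 (adjusted p = 0.00107 to 0.00450) called all 3 lower, and limma none.

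Some circRNA entries had nearly the same reads in every library. novel_circ_001965 had 152, 181 and 153 reads at 3 dpa and 67, 88 and 60 at 7 dpa, and novel_circ_001966 had 149, 180 and 154 and then 69, 87 and 61. Among the 17020 pairs of the 185 circRNAs that averaged 10 reads or more, 3 pairs differed by at most 5%, taken as the sum over the 9 libraries of the absolute differences in reads, relative to the mean of the summed reads. The others were novel_circ_004292 with novel_circ_004294 (1547 and 1551 reads in all, a difference of 0.775%) and novel_circ_004291 with novel_circ_004293 (737 and 756 reads, 2.55%). Whether such entries are separate molecules was not tested.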
